A study of Arabidopsis thaliana with 16 samples.

Results

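A selected set of genes that encode proteins of the cytosolic ribosome was examined for RNA secondary structure and for protein protected sites in nuclei of Arabidopsis rosette leaves. A list of 49 loci for large subunit proteins (RPL), small subunit proteins (RPS) and the stalk protein P0 was matched to the mRNA structure tables, and 43 of them had a row, out of 10570 nuclear genes in those tables. The 43 genes comprised 19 of the large subunit, 22 of the small subunit and 2 of P0, and belonged to 27 protein families, 13 of which were represented by at least 2 paralogues. The RefSeq product text named a ribosomal protein for 41 of the 43. The exceptions were AT3G49010, listed as breast basic conserved 1 and belonging to the L13 family, and AT5G03850, listed as a nucleic acid-binding protein and belonging to the S28 family. The 6 loci without a row were AT5G02870 (L4), AT1G26910 and AT1G66580 (L10), AT2G42740 (L11), AT2G40010 (P0) and AT5G39850 (S9), and they were not analysed here.

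All plants were of the Columbia-0 ecotype and carried UBQ10:NTF together with ACT2p:BirA, a pair of transgenes that biotinylates the nuclear envelope under promoters of broad activity, so that nuclei of many leaf cell types were collected together. The control-treated and the salt-treated group each had 2 replicates of rosette leaves 4 weeks old, crosslinked with 1% formaldehyde, and the salt treatment was long-term watering with NaCl. In protein interaction profile sequencing (PIP-seq), RNA of the same nuclei is digested with a ribonuclease specific for double-stranded RNA (dsRNase) or for single-stranded RNA (ssRNase), either with bound proteins in place or after their removal, which gave 4 libraries per replicate and 16 in all. Sites with more reads when proteins are in place are protein protected sites (PPSs), and 1 list of PPSs was made per replicate. The structure score of a base compares reads from paired and unpaired RNA on a log2 scale, so that a higher score means more pairing, and it was made once per condition from both replicates together.

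The cytosolic ribosome translates nuclear-encoded mRNAs. Its proteins are made in the cytosol, imported into the nucleus and assembled on rRNA in the nucleolus before the subunits are exported. In Arabidopsis each ribosomal protein is encoded by a small family of paralogues that are nearly identical in protein sequence, and their mRNAs are among the most abundant of growing tissues. The transcripts measured here were those of isolated nuclei, in which the study's protein blots also detected a marker of the endoplasmic reticulum, so RNAs past export can be among them.

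The score of each spliced transcript is centred on its own mean, so a higher score in one region of a transcript goes with a lower score elsewhere in it, and the score carries no information on abundance. As there was 1 structure value per condition, differences between conditions have no replicate check and no test was made. A difference of 0.5 score units was used as a size rule, with at least 20 scored bases of a region in both conditions. For PPSs, 2 lists against 2 cannot give a two-sided exact permutation p below 0.33, so the values of each list are given. Of the leaf marker genes listed, 12 of 12 had a row in the structure tables, against 0 of 5 root markers and 0 of 3 floral markers. The markers were chosen with earlier results of these data known, so this split is no independent check of the tissue. The tables used here give no read depth per gene. As a proxy, 98.4% and 97.6% of the coding bases of the 43 genes were scored in control-treated and salt-treated tissue, against 93.7% and 90.8% over all genes. For 5′ UTRs the same shares were 75.4% and 73.4%, and for 3′ UTRs 79.1% and 70.9%.

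Sequences within the coding sequence (CDS) at regions with a PPS in every list are shown first. A region here joins the overlapping calls of the 4 lists, so a single list need not cover all of its bases. The sequences were read from the reference genome of the same build as the tables (TAIR10), 5′ to 3′ on the strand of the gene. The first pair lies in AT4G31700, which encodes RPS6, a phosphoprotein of the small subunit and a target of the TOR-S6 kinase pathway, and in its paralogue AT5G10360 (EMB3010). It is the longest run of aligned coding bases that was under a PPS region in both genes, and capitals mark the 48 of 55 bases that are identical. In AT4G31700 control list 2 had a call of 139 bases over the whole run, and the other 3 lists had a call of 33 bases inside it (chr4:15346862-15346894). In AT5G10360 the call was of 51 bases in control list 1 and both salt lists and of 48 bases in control list 2. In both genes the calls of control list 2 and salt list 2 were on the strand of the gene. Those of control list 1 and salt list 1 were on the opposite strand.
AT4G31700 RPS6, chr4:15346853-15346907, minus strand: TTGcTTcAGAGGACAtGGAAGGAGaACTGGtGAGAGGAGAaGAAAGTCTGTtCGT
AT5G10360 EMB3010, chr5:3259271-3259325, minus strand: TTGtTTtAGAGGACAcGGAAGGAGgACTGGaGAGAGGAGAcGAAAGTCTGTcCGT
Not every CDS region with a call in every list had low scores. In control-treated and salt-treated tissue, such a region had means of 0.97 and −0.29 in AT2G39460 and −1.08 and 0.60 in AT2G17360. Another had 0.01 and 0.30 in AT3G53870, and these regions are not printed. Regions in AT3G11940 (chr3:3778320-3778361) and elsewhere in AT3G53870 (chr3:19952435-19952484) were also in the CDS with a call in every list. Their mean scores are not given. Further regions with a call in every list are printed because their mean structure scores were below 0 in both conditions. Here capitals mark bases scored below 0, the less paired side of the transcript mean, in both conditions. They lie in AT2G18020 (EMB2296), an L8 protein near the peptidyl transferase centre, in AT3G09200, one of the P0 genes, whose product anchors the stalk that recruits elongation factors, and in AT2G19730, an L28 gene. In AT2G18020 every list had a call on the strand of the gene. Salt list 1 in AT3G09200 and salt list 2 in AT2G19730 had calls on the opposite strand only.
AT2G18020 EMB2296, chr2:7837853-7837982, plus strand: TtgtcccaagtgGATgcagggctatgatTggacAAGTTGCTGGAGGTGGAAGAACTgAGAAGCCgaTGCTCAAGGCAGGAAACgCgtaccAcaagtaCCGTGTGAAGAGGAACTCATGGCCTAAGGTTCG
AT3G09200 P0, chr3:2824766-2824851, minus strand: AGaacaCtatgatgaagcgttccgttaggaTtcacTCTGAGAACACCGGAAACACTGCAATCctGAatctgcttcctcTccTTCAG
AT2G19730 L28, chr2:8512491-8512531, plus strand: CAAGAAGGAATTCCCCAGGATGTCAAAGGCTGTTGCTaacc

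By their medians the mRNAs of these genes were less paired in the untranslated regions than in the CDS, and the distance between 5′ UTR and CDS was wider in salt-treated than in control-treated tissue. The median 5′ UTR score over 41 genes with enough scored bases was −0.25 in control and −0.78 in salt-treated tissue, against −0.07 and −0.10 over all 8757 genes scored. The median CDS score over 43 genes was 0.06 and 0.22, against 0.03 and 0.04 over 10003 genes. The median 3′ UTR score was −0.12 and −0.42, against −0.04 and −0.20 over 10159 genes. The CDS score was above the 5′ UTR score in both conditions for 24 of 41 ribosomal protein genes (58.5%), where 34.6% of all genes met the same rule. The order held for 12 of 19 large subunit genes and 11 of 21 small subunit genes. It was met by a smaller share of further genes whose product names a ribosomal protein and no organelle, as given under Other observations.

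**Figure D1:**
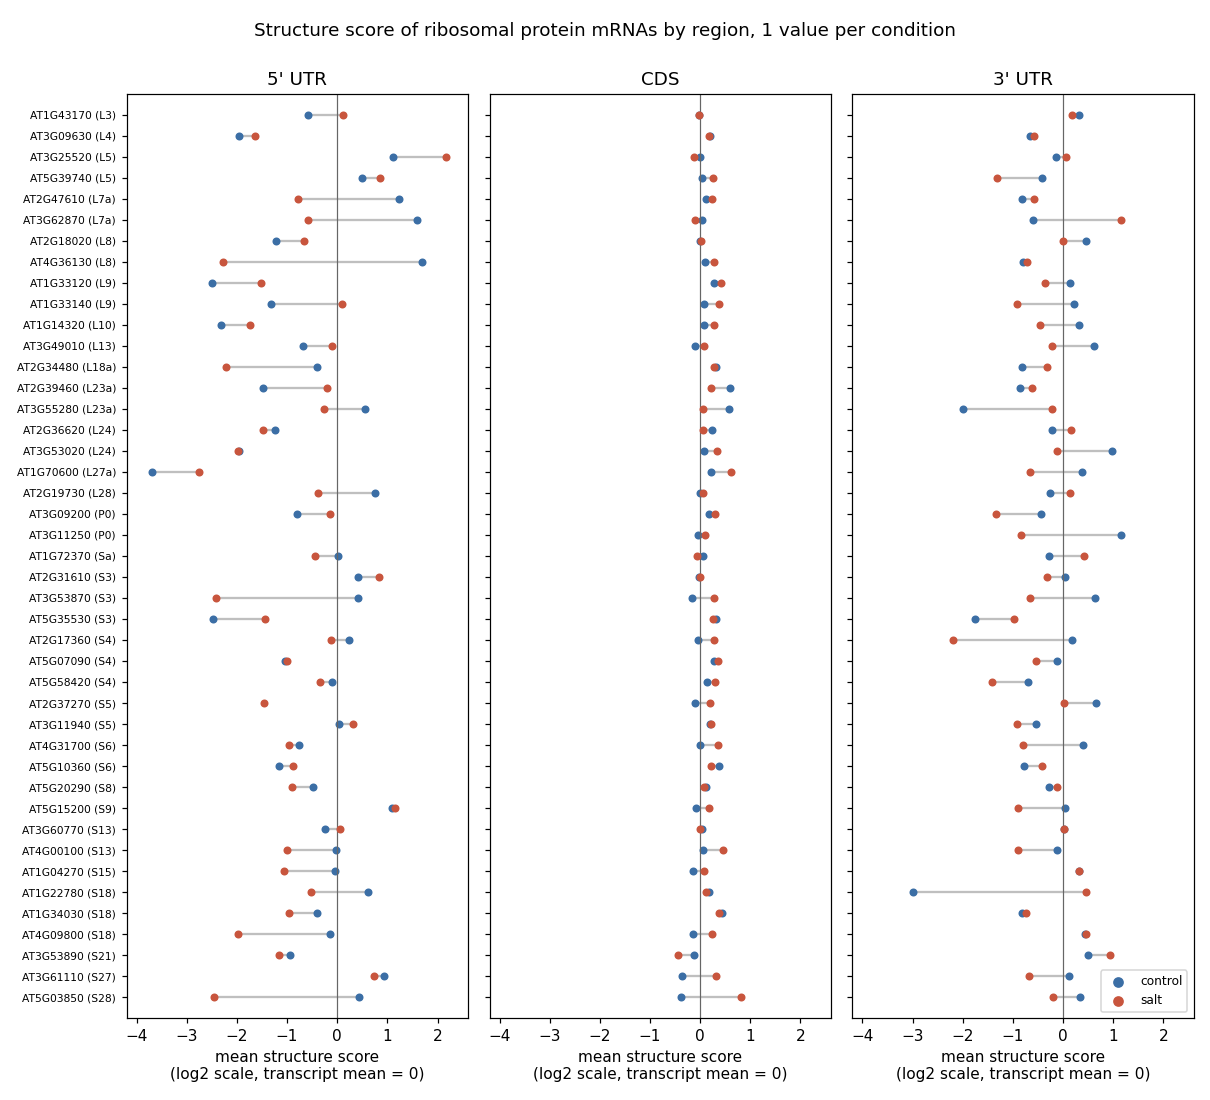
Mean structure score of the 5′ UTR, CDS and 3′ UTR (x axes, log2 scale with the transcript mean at 0) for each of the 43 genes (rows, protein family in brackets), with control-treated tissue as blue and salt-treated tissue as red points, 1 value per condition with no error. CDS scores lie between −0.45 and 0.82, and UTR scores spread from −3.68 to 2.17.

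UTR scores varied far more between genes than CDS scores. In control-treated tissue the 5′ UTR scores ran from −3.68 to 1.70 and the CDS scores from −0.39 to 0.59. The 5′ UTRs of these genes were short, with a median of 88 bases against 134 over all genes, so each mean rests on few bases. The bases of a stretch also share reads and are not independent.

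The 3 least paired 5′ UTRs in control-treated tissue belonged to AT1G70600 (L27a) at −3.68, AT1G33120 (L9) at −2.50 and AT5G35530 (S3) at −2.47. In salt-treated tissue they scored −2.76, −1.53 and −1.45, so they stayed below 0 in both conditions. The 3 highest control values were those of AT4G36130 (L8) at 1.70 and of both L7a genes, AT3G62870 at 1.59 and AT2G47610 at 1.24. All 3 were below 0 in salt-treated tissue, at −2.28, −0.58 and −0.78. Genes picked as the highest in control tend to be lower in a second measurement by the selection alone, and the lowest higher. Such directions are therefore no sign of a response to salt.

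Between conditions, 5′ UTRs of ribosomal protein genes differed about as often as those of other genes. A lower 5′ UTR score in salt-treated tissue by the size rule was found for 13 of 41 genes (31.7%), against 30.6% of all genes, and a higher one for 11 of 41 (26.8%), against 30.2%. Both shares are near the background. The subunits differed in the higher calls. The score was higher by the rule in 9 of 19 large subunit genes and in 1 of 21 small subunit genes, whereas it was lower by the rule in 6 of 19 and 7 of 21. The median difference was 0.36 for the large and −0.24 for the small subunit. This contrast was seen in the values, was not tested and has no replicate.

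The largest lower values were in AT4G36130, from 1.70 to −2.28 (−3.97), in AT5G03850 (S28), from 0.44 to −2.47 (−2.91), in AT3G53870 (S3), from 0.41 to −2.42 (−2.83), and in AT3G62870, from 1.59 to −0.58 (−2.18). S3 proteins line the channel by which mRNA enters the small subunit. The paralogue AT2G31610 had 0.42 in control and 0.83 in salt-treated tissue, so the S3 genes differed in opposite directions. The 4 largest higher values were in AT1G33140 (PGY2, an L9 gene named for its leaf polarity phenotype), from −1.31 to 0.10, in AT2G39460 (RPL23AA), from −1.48 to −0.21, in AT3G25520 (ATL5, which carries the smallest rRNA of the large subunit), from 1.10 to 2.17, and in AT5G35530, from −2.47 to −1.45. The difference of AT2G39460, 1.27, was 2.08 as a mean over its isoforms and 1.86 over bases scored in both conditions, the latter an alternative chosen after seeing the data, and was then above that of AT1G33140, which was 1.41 and 1.51. All 3 genes of the S18 family, which encode proteins of identical sequence, were lower in salt-treated tissue, by −1.13 in AT1G22780 (PFL), −0.55 in AT1G34030 and −1.82 in AT4G09800 (RPS18C).

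Few CDS scores differed by the size rule between conditions, though the CDSs of the set leaned towards higher scores in salt-treated tissue. The median difference was 0.12, against 0.02 over all genes. By the size rule 1 of 43 genes was lower in salt-treated tissue (2.33%), against 1.54% of all genes, and 2 were higher (4.65%), against 2.37%. At a size of 0.25 units, 12 were higher (27.9%), against 11.2% of all genes, and 3 were lower (6.98%), against 6.96%. The gene with the lower score was AT3G55280 (RPL23AB), from 0.58 to 0.07. Its paralogue AT2G39460 was also lower, from 0.59 to 0.22, and these 2 had the highest CDS scores of the set in control-treated tissue, followed by AT1G34030 at 0.44. L23a proteins sit at the exit of the tunnel through which the nascent chain leaves. AT3G53890 (S21) and AT2G36620 (RPL24A) followed with differences of −0.32 and −0.18, and the latter was −0.10 over bases scored in both conditions. The genes with higher scores were AT5G03850, from −0.39 to 0.82, and AT3G61110 (RS27A), from −0.36 to 0.31, the lowest CDS scores of the set in control-treated tissue. AT3G53870 was next lowest at −0.16 and had 0.28 in salt-treated tissue, and AT4G00100 (RPS13A) went from 0.05 to 0.46. As in 5′ UTRs, picking extremes of the control scores favours falls of the highest and rises of the lowest. The S28 and S27 coding sequences are short, with 195 and 261 bases, so that the centring on the transcript mean ties the CDS closely to the UTRs. The 5′ UTR of AT5G03850 differed in the other direction, as given above.

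In 3′ UTRs lower scores in salt-treated tissue outnumbered higher ones. A lower score by the size rule was found for 18 of 43 genes (41.9%), against 31.4% of all genes, and a higher one for 5 of 43 (11.6%), against 21.2%. With only bases scored in both conditions, 19 were lower (44.2%), against 30.3%, and 9 were higher (20.9%), against 23.1%, a share near the background. The median difference was −0.35, against −0.08 over all genes. It was 0.08 for the large subunit and −0.37 for the small subunit.

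Lower values were largest in AT2G17360 (S4), from 0.18 to −2.19, AT3G11250 (P0), from 1.15 to −0.83, AT3G53870, from 0.64 to −0.66, and AT4G31700, from 0.41 to −0.79. All 3 S4 genes were lower, with differences of −0.40 in AT5G07090 and −0.73 in AT5G58420, and so were both P0 genes, with −0.89 in AT3G09200. Higher values were largest in AT1G22780, from −3.0 to 0.46, AT3G55280, from −2.00 to −0.21, AT3G62870, from −0.61 to 1.15, and AT5G35530, from −1.76 to −0.98. The first of these rests on 50 scored bases in control and 28 in salt-treated tissue of a 3′ UTR of 179 bases. Other named values also rest on few scored bases in control and salt-treated tissue. There were 51 and 74 of 175 in AT3G11250, 135 and 54 of 190 in AT3G55280, and 61 and 134 of 244 in AT5G35530. With only bases scored in both conditions, AT3G55280 differed by 0.78 and AT3G11250 by −3.82. The highest 3′ UTR scores in control-treated tissue were those of AT3G11250 (1.15), AT3G53020 (0.97) and AT2G37270 (RPS5B, 0.65). AT3G53020 (STV1) is an L24 gene needed for reinitiation after upstream open reading frames. In salt-treated tissue the 3 genes were at −0.83, −0.12 and 0.02, a direction that picking the highest control scores favours.

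Around the start codon the mean structure score of the ribosomal protein mRNAs was lower than that of mRNAs in general. Over the first 10 coding bases the mean score was −0.72 ± 1.10 (SD over 42 genes) in control-treated and −0.55 ± 1.47 (42 genes) in salt-treated tissue. Over all genes it was −0.18 and −0.15. The mean of this window was below 0 in 33 of 42 ribosomal protein genes (78.6%) in control-treated tissue, against 56.1% of all genes, and in 29 of 42 (69.0%) in salt-treated tissue, against 54.4%. By bases 90 to 99 of the CDS the mean had reached 0.26 in both conditions, against 0.09 and 0.14 over all genes. Upstream, the window from 20 to 11 bases before the start codon scored −0.50 in control and −0.75 in salt-treated tissue, against −0.15 and −0.16 over all genes. From 50 to 41 bases before it, the means were −0.29 and −0.85 over 35 genes, against −0.13 in both conditions over all genes. From 90 to 81 bases before it the direction was the other way, with −0.57 over 16 genes and −0.10 over 15. Before the end of the CDS, bases 30 to 21 before the 3′ UTR scored −0.50 in control and 0.05 in salt-treated tissue, against 0.01 and 0.03 over all genes. The SD over genes exceeds each of these differences between conditions. It is the spread between genes within a condition, and the spread of the difference within genes is not given.

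**Figure D2:**
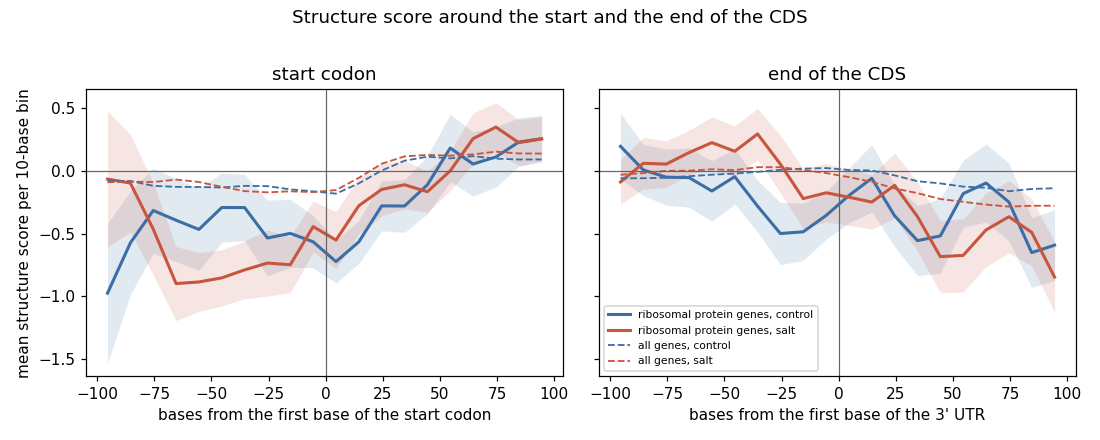
Mean structure score per 10-base bin (y axis) by distance in bases from the start codon (left) and from the first base of the 3′ UTR (right), for ribosomal protein genes (solid lines, shading 1 standard error over genes, which are not replicates) and all genes (dashed). The ribosomal protein lines reach −0.72 (control, blue) and −0.55 (salt, red) at the first 10 coding bases, where the dashed lines are at −0.18 and −0.15.

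In the CDS of control-treated tissue the 4 bases had the same order of mean score as over all genes. C had the highest mean, 0.26 against 0.15 over all genes, and G the lowest, −0.06 against −0.12. The 3 codon positions of the 43 genes had means of 0.09 each in control and 0.18 each in salt-treated tissue. The CDSs of the set held 47.7% G and C, against 44.6% over all genes, and the 3′ UTRs 32.0%, against 36.5%.

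Within a transcript, the control and salt profiles resembled each other weakly. The Pearson correlation over scored bases had a median of 0.23 for the 43 genes and 0.20 for all 10570, with no p given, since neighbouring bases share reads. AT3G53020 had the highest value, 0.53 over 672 bases, and AT2G19730 the lowest, −0.15 over 490 bases. Stretches of 30 coding bases that were at the same extreme in both conditions are shown next, with G and C in capitals. Stretches were ranked by the condition nearer to 0, with 1 stretch per gene, and only those within 1 exon are printed. The first 2 were the highest and the other 2 the lowest.
AT2G17360 S4, chr2:7547814-7547843, plus strand: CaaGCCtaaCGaCaCCatCaaGCtCGaCCt
AT1G72370 P40, chr1:27243757-27243786, minus strand: CCaatCattGCtttCtGtGaCaCaGaCtCt
AT3G53020 STV1, chr3:19660751-19660780, minus strand: CtaaGGtGGGaGGtGGtGGtGGCaaaCGCt
AT2G31610 S3, chr2:13451183-13451212, plus strand: GttatGGtGttttGaGatttGttatGGaGa
Their mean scores in control-treated and salt-treated tissue were 3.21 and 2.79 in AT2G17360, and 2.76 and 2.58 in AT1G72370, which encodes the SA protein of the small subunit. They were −3.51 and −3.39 in AT3G53020. They were −2.53 and −2.55 in AT2G31610. The stretches with the widest difference between conditions were the following, the first higher and the second lower in salt-treated tissue.
AT4G36130 L8, chr4:17097832-17097861, plus strand: GaGCttttCGttGCtGCtGaaGGtatGtat
AT1G43170 RP1, chr1:16268497-16268526, plus strand: CttCtCaCtCaGaCttCCCGtCttGCCttG
The stretch of AT4G36130 scored −2.12 in control and 3.72 in salt-treated tissue. The stretch of AT1G43170, which encodes an L3 protein, scored 3.92 and −1.07. All of these were picked as extremes among overlapping stretches and have no replicate check.

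Paralogues encode nearly the same protein, and their structure profiles were compared over aligned coding bases. The 19 pairs shared a median of 88.2% of their aligned coding bases. The median Pearson correlation of their scores was 0.24 in control and 0.20 in salt-treated tissue, and it was above 0 in 15 and 17 of 19 pairs. Members of different families, laid on each other from the start codon, had medians of 0.01 and 0.02 over 884 pairs. Paralogues share sequence, and the mapping kept reads with up to 10 hits, so that both copies can carry the same reads. The part of such reads in these correlations was not tested.

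The most alike pairs in control-treated tissue were AT2G31610 and AT5G35530 of S3 with 0.53, AT2G17360 and AT5G58420 of S4 with 0.51, and the L23a pair with 0.42. In salt-treated tissue the same pairs had 0.32, 0.02 and 0.36. The least alike were the S18 genes AT1G22780 and AT1G34030 with −0.46, AT1G22780 and AT4G09800 with −0.11, and the L7a pair with −0.01, which had 0.20, −0.37 and 0.34 in salt-treated tissue. The 2 L9 genes were identical at 99.1% of coding bases, with an identical run of 458 bases, and had correlations of 0.18 and 0.44. The pair with the highest identity was thus not the pair with the most alike profiles. Salt minus control differences had the same sign in both genes for 9 of 17 pairs in 5′ UTRs, 10 of 19 in CDSs and 13 of 19 in 3′ UTRs. Over the set, scores were lower in salt-treated tissue by any size in 22 of 41 5′ UTRs, 16 of 43 CDSs and 25 of 43 3′ UTRs. Unrelated genes would thus also often share a sign, and pairs that share a gene are not independent. Whether paralogues agree more often than other genes was not tested.

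**Figure D3:**
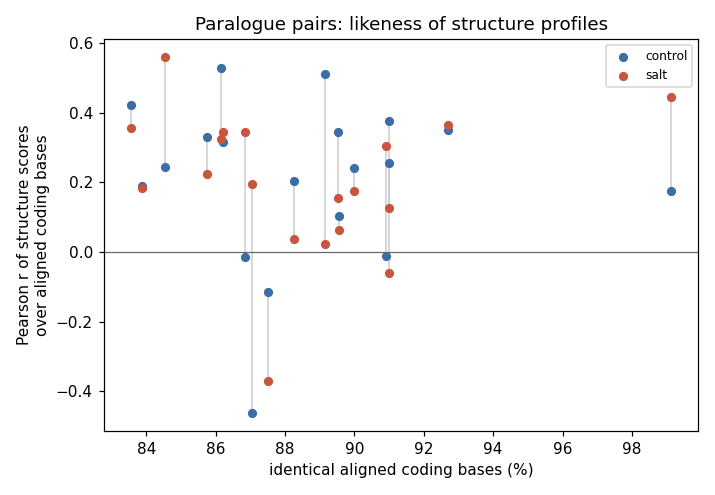
Pearson correlation of structure scores over aligned coding bases (y axis) against identical aligned coding bases in percent (x axis) for the 19 paralogue pairs, blue for control-treated and red for salt-treated tissue, with a grey line joining the values of a pair. Correlations run from −0.46 to 0.56, and the pair at 99.1% identity is at 0.18 and 0.44.

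PPSs were present in a larger share of these 43 genes than of all genes. Counted on either strand with an overlap of at least 1 nt, a PPS was present in 28 and 27 of 43 genes in control lists 1 and 2 and in 28 and 24 in salt lists 1 and 2. The shares were 65.1%, 62.8%, 65.1% and 55.8%, against 51.5%, 45.9%, 52.7% and 41.0% of all genes. A PPS in all 4 lists was found for 18 genes (41.9%), against 21.1% of all genes, in both control lists for 24 (55.8%) against 38.6%, and in both salt lists for 21 (48.8%) against 34.6%. This did not extend to the 125 further genes whose product names a ribosomal protein and no organelle, of which 23 (18.4%) had a PPS in all 4 lists. Per kilobase of gene there were 1.22, 1.03, 1.19 and 0.77 PPSs, against 0.91, 0.71, 0.82 and 0.67 over all genes. The share of scored bases was also higher in this set, as given above, and its part in the PPS counts was not tested.

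The 4 lists were not independent of each other at these genes. Of 290 calls in the 43 genes over the lists, 214 (73.8%) had a call with the same start, end and score in another list, against 68.8% over all genes. For 174 calls such a twin was in the replicate list of the same condition, for 148 in a list of the other condition, and for 158 a twin was on the opposite strand. On the strand of the gene lay 44 of 84 calls in control 1, 55 of 71 in control 2, 68 of 82 in salt 1 and 24 of 53 in salt 2. Presence in several lists is therefore no independent replication, and the strand of a call was not used.

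**Figure D4:**
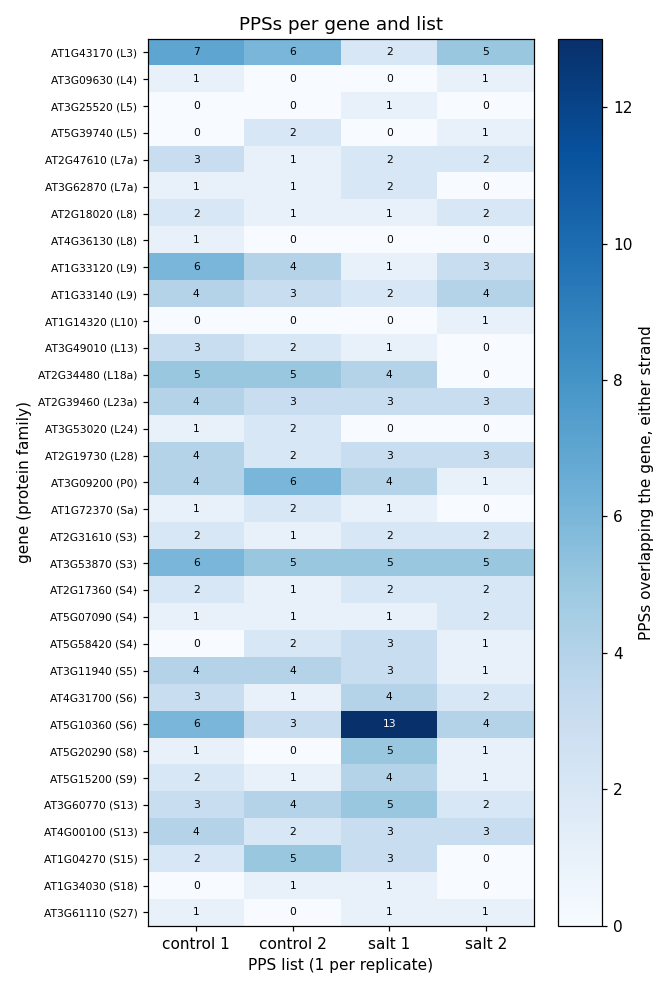
Number of PPSs overlapping each gene on either strand (cell values and shade) in the 4 lists (columns) for the 33 genes with at least 1 PPS (rows). AT5G10360 has 6, 3, 13 and 4, and the remaining cells are at 7 or below.

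The calls of the 33 genes with a PPS merged into 106 distinct regions, of which 24 were in all 4 lists, 26 in 3, 30 in 2 and 26 in 1. Regions in lists of both conditions numbered 65 (61.3%), against 50.7% of the 37617 regions of all genes. Another 25 were in control lists only (23.6%, against 26.5%) and 16 in salt lists only (15.1%, against 22.8%). Those in both control lists and no other numbered 12 (11.3%, against 9.50%), and those in both salt lists and no other 3 (2.83%, against 7.95%). Regions touched the CDS in 87 cases, introns in 40, the 5′ UTR in 13 and the 3′ UTR in 5. Coding bases made up 86.5% of exonic bases under a region and 66.6% of all exonic bases of the set, and over all genes these shares were 86.7% and 70.1%. PPS regions covered 10.6% of 5′ UTR bases, against 5.31% over all genes, and 2.72% of 3′ UTR bases, against 4.81%. The covered share was thus above that of all genes in 5′ UTRs and below it in 3′ UTRs, as a description with no test.

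Calls made with the dsRNase alone were 60 of 84 in control 1 (71.4%, Wilson 95% interval 61.0% to 79.99%), 45 of 71 in control 2 (63.4%, 51.8% to 73.6%), 60 of 82 in salt 1 (73.2%, 62.7% to 81.6%) and 45 of 53 in salt 2 (84.9%, 72.9% to 92.1%). Over all genes the shares were 58.4%, 41.7%, 56.4% and 52.2%, each below the interval of the set. The intervals cover counting error only and take calls as independent, which shared calls are not. In salt list 1 the small subunit genes had 56 calls and the large subunit genes 22, whereas in control list 1 they had 38 and 42. The lists of replicate 2 showed no such reversal, with 33 and 32 in control list 2 and 27 and 25 in salt list 2. AT5G10360 alone accounted for 13 of the 56 calls in salt list 1.

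Coding bases under a PPS had a lower mean score than the rest. In control-treated tissue their mean score was −0.05 over 4037 bases, against 0.11 over 23288 bases outside, and in salt-treated tissue 0.01 over 3418 bases, against 0.21 over 23663. Over all genes the means were −0.21 and 0.06 in control-treated and −0.13 and 0.07 in salt-treated tissue.

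AT5G10360 had the most distinct regions, 10, which covered 31.4% of its span. It had 6 and 3 PPSs in the control lists and 13 and 4 in the salt lists, so salt list 1 stood above the other 3. Of its regions, 5 were in 1 list or 2, and 1 was in all 4, the region printed above, with scores of 9.77 and 8.14 in the control and 9.77 and 9.77 in the salt lists. AT4G31700 had 3 and 1 PPSs in the control lists and 4 and 2 in the salt lists. The region of AT4G31700 that contains the printed stretch had scores of 7 and 19.36 in the control lists and 7 in each salt list. Over the aligned codons of the pair, 189 bases of AT4G31700 and 306 of AT5G10360 were under a region, and 129 under both, or 68.3% of the first and 42.2% of the second. The printed stretch had mean structure scores of −1.52 in control and −0.90 in salt-treated tissue in AT4G31700, and −0.02 and −0.83 in AT5G10360. The longest identical run of the pair was 37 bases. The only isoform of AT4G31700 in the tables has a coding sequence of 188 residues, which begins inside that of AT5G10360 with 249, so the comparison covers the shared part.

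**Figure D5:**
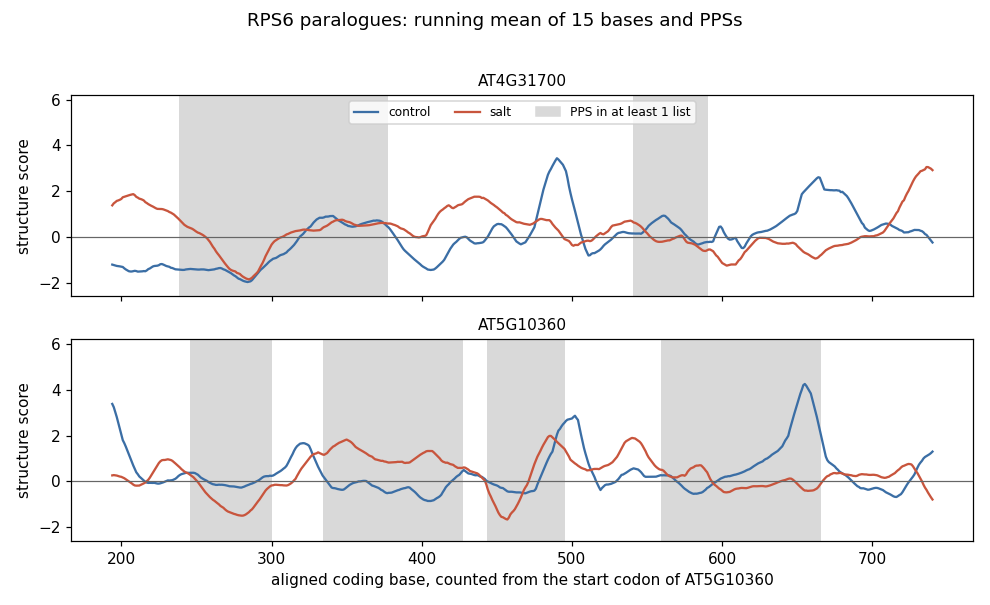
Structure score (y axes, running mean of 15 bases) along the aligned coding bases of the RPS6 genes AT4G31700 (top) and AT5G10360 (bottom), counted in bases from the start codon of AT5G10360 (x axis), blue for control-treated and red for salt-treated tissue. Grey bands mark bases under a PPS of at least 1 list, and bands of both genes coincide over the stretch of 55 bases that has a mean score below 0 in each gene and condition.

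AT1G43170 (RP1, an L3 protein, which reaches into the peptidyl transferase centre) had 7 regions, with 7 and 6 PPSs in the control lists and 2 and 5 in the salt lists. A region at its 5′ UTR of 42 bases had a score of 15.2 in each control list, and a region of 25 bases over the start of the CDS had 17.82 in each, and neither was in a salt list. The calls of both control lists were identical there. A region of 46 bases in the CDS was in both salt lists only, with scores of 7.27 and 8.35. AT3G60770 (S13) had 6 regions and AT3G53870 had 5, all of the latter in all 4 lists. The highest scores of these 5 regions lay between 6.81 and 9.55 and were the same in every list. A further 10 genes had 4 regions each, namely AT1G33120, AT1G33140, AT2G39460, AT2G19730, AT2G34480 (L18a), AT4G00100, AT5G20290 (S8), AT3G09200, AT5G15200 (S9) and AT1G04270 (RPS15). In the L9 pair, a region of 345 bases in AT1G33120 and of 267 bases in AT1G33140 reached 47.5 in both salt lists, and 16.19 and 37.78, respectively, in each control list. The pair is nearly identical in sequence, so the reads behind these calls could come from either gene.

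In other families, PPSs of paralogues partly lay on the same codons. All 42 coding bases of AT2G31610 under a PPS aligned with bases of AT3G53870 under a PPS, where 27.6% of aligned bases of AT3G53870 were covered. The S13 genes shared 81 bases, 59.1% of those of AT4G00100 and 40.9% of those of AT3G60770. The L7a genes shared 28 bases, 25.2% of those of AT3G62870 and 25.5% of those of AT2G47610. The L8 genes shared 24, 18.5% of those of AT2G18020 and 34.3% of those of AT4G36130. In S4, AT2G17360 had 99 aligned bases under a PPS and shared 0 with the 149 of AT5G07090. It also shared 0 with AT5G58420, but that gene had only 3 such bases, so little sharing was possible.

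A PPS in no list was found for 10 of 43 genes (23.3%), against 33.5% of all genes, among them AT1G22780 and AT4G09800 of S18, AT3G55280, AT5G35530 and AT5G03850. Their paralogues differed, since AT2G39460 of the L23a pair had 4 and 3 PPSs in control and 3 and 3 in salt lists, and AT3G09200 had 4 and 6 and 4 and 1 where AT3G11250 had 0 in each. Scored coding bases in control and salt were 389 and 392 of 465 in AT3G55280, and 465 in both in AT2G39460. They were 743 and 631 of 972 in AT3G11250, and 960 and 961 of 963 in AT3G09200. In AT5G03850, also without a PPS, all 195 were scored. The part of coverage in these PPS counts was not tested. PPSs in control lists only were found for 2 genes, AT3G53020 with 1 and 2 and AT4G36130 with 1 and 0, and 7.37% of all genes met this rule. In salt lists only, where the share of all genes was 7.76%, AT3G25520 had 1 and 0, and AT1G14320 (SAC52, an L10 protein) had 0 and 1. The single PPSs of AT4G36130, AT3G25520 and AT1G14320 do not differ beyond the spread between replicate lists. In AT3G53020 a region of 62 bases was in both control lists, with scores of 6.57 and 20.07, and in neither salt list.

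A sequence feature that the selection did not use was the telobox, a short element known from promoters of Arabidopsis ribosomal protein and other translation genes. The letters AAACCCTA were found in the first 50 bases of the annotated transcript in 10 of 41 genes with a 5′ UTR of that length (24.4%), against 2.00% of 9753 genes, and the reverse complement TAGGGTTT in another 10 (24.4%), against 1.32%. The search covered both strands, and 20 of 41 genes (48.8%) had one of them, against 3.32% of all genes. The share was 47.1% for the large and 45.5% for the small subunit. Examples were AT5G10360, where it lay at base 4 (chr5:3260224-3260231), AT4G09800, at base 4 (chr4:6173718-6173725), and AT3G11250, at base 5 (chr3:3521361-3521368). A match is a description of letters in this window, the element is chosen here from background knowledge of such genes, and most of the AAACCCTA matches carried no structure score.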

How the data were processed

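The authors trimmed reads, mapped them to TAIR10 with up to 10 hits per read and deposited 2 kinds of table used here, and the submitters' processing notes name cutadapt 1.2.1 and TopHat2 2.0.10. The PPS lists, 1 per replicate, hold an enrichment score that the authors deposited for each site, called by a modified CSAR (false discovery rate 5%). Where a site lists several scores, the highest was used. The per-base structure values deposited by the authors are a generalized log2 ratio of reads from paired over unpaired RNA, standardized by coverage and centred on each spliced transcript, with both replicates merged. The lncRNA tables held 0 of the listed loci and were not used.

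The members and gene lists were chosen with earlier results of these data known. Per gene, the isoform with the most scored bases was used. Named genes are the extremes of each region and difference, those with the most PPS regions, and the most and least alike pairs. Proteins were aligned with Biopython 1.88 (gap costs 11 and 1) only to pair codons. Python 3.11.15 and numpy 2.4.6 were used, and steps were tested on simulated data. No PPS lay beyond a chromosome end of the TAIR10.1 reference, and all 43 coding sequences began with ATG.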

Additional observations from a re-analysis of the deposited data

How the results depend on the processing

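Counts over the genes depended on thresholds. With a size rule of 0.25, the number of higher 5′ UTRs in salt-treated tissue was 17 in place of 11, of higher CDSs 12 in place of 2, of lower CDSs 3 in place of 1 and of higher 3′ UTRs 10 in place of 5. Where 80% of a region had to be scored, lower 5′ UTRs numbered 3 and lower 3′ UTRs 7. These counts are over fewer genes, with neither their number nor the share of all genes given. With scores limited to −3 to 3, 0 CDSs were lower. With only bases scored in both conditions, an alternative chosen after seeing the data, 9 3′ UTRs were higher. With PPSs on the strand of the gene only, 8 genes had one in all 4 lists and 12 in both salt lists. With a PPS score above its list's median, the counts were 10 for all 4 lists, 14 for both control lists, 13 for both salt lists and 47 for distinct regions. The shares of all genes under the strand and score rules are not given, so whether an excess over all genes remained is not shown. Leaving out a replicate gave 27 to 28 genes with a PPS in the remaining control list, in place of 24, 24 to 28 in the remaining salt list, in place of 21, and 84 to 99 regions, in place of 106. Some of these shifts follow from the rules. A smaller size rule can only raise a count of genes. A demand for 80% of bases scored, for the gene strand or for a higher PPS score can only lower it. Presence in 1 list of a condition is a weaker demand than presence in both. The cause of the other shifts was not tested, and no difference recomputed under the alternatives changed sign. No paired analysis was possible because no result comes from a test and the structure tables merge the replicates.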

Other observations

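Other genes of translation give a frame for these values. In 14 genes of translation factors and related proteins, the CDS score was above the 5′ UTR score in both conditions for 10 of 14, and their median 3′ UTR difference between salt-treated and control-treated tissue was −0.37. Over 125 further genes whose product names a ribosomal protein and no organelle, the same order of CDS and 5′ UTR was found in 46 of 116, and the median CDS score over 124 was 0.06 for control-treated and 0.16 for salt-treated tissue. A PPS in all 4 lists was found for 23 of 125 (18.4%). Of 43 genes for ribosomal proteins of named organelles, 3 had one (6.98%). Both shares were below the 21.1% of all genes. Either orientation of the telobox letters was found in 19.5% of the 123 with no organelle named, 12.2% of the 41 with one, and 7.14% of the 14 translation genes. Product text need not name the organelle, so the first list can hold organelle proteins.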
